A study of Mus musculus with 4 samples.

Results

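The 40 genes described here encode lysosomal hydrolases, the cofactors and membrane proteins they work with, subunits of the lysosomal proton pump, and the 3 transcription factors Tfeb, Tfe3 and Mitf. They were chosen by name and function from the 27998 genes of the deposited table, and all 40 were found there. By role they form 12 proteases and peptidases (the cathepsins Ctsa, Ctsb, Ctsc, Ctsd, Ctsf, Ctsh, Ctsk, Ctsl, Ctss and Ctsz, with Lgmn and Tpp1), 10 enzymes that break down glycans (Gla, Glb1, Gaa, Hexa, Naglu, Neu1, Man2b1, Fuca1, Manba and the sulfatase Sgsh), 7 genes of lipid breakdown, its activators and lipid transport (Smpd1, Asah1, Ppt1, Psap, Npc1, Npc2 and Grn), 4 membrane proteins (Scarb2, Cd68, Lamp1 and Lamp2), 4 pump subunits (Atp6v0d2, Atp6v1a, Atp6v1b2 and Atp6v0c) and 3 factors of the MiT family.

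Lysosomes are acidic compartments in which material taken up by endocytosis and phagocytosis, or delivered by autophagy, is broken down. A proton pump, the vacuolar ATPase, keeps them acidic, membrane proteins such as Lamp1 and Lamp2 line them, and each hydrolase removes one kind of bond from proteins, glycans or lipids. MiT factors enter the nucleus when nutrients are scarce or lysosomes are damaged, and bind a DNA element built around the letters CACGTG near the start of many lysosomal genes. In liver, resident macrophages called Kupffer cells clear particles, dying cells and lipoproteins from the blood and are rich in lysosomes.

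The study compared liver immune cells of C57BL/6J mice kept on a control diet or given the Amylin liver NASH model diet, which is used to bring about non-alcoholic steatohepatitis (NASH), a fatty liver disease with inflammation. Non-parenchymal cells sorted as CD45+ CD146- were measured by 10x Genomics droplet single-cell RNA sequencing in 4 libraries, 2 for each diet. No label names an age, a sex, the time on the diet or the mice behind each library, so p-values measure the spread between libraries, which may be technical. Flavopiridol, a blocker of transcription, was present while all livers were digested.

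Of 6927 deposited barcodes, 6158 were kept as cells. Of these, 966 and 867 in the control and 725 and 1022 in the NASH-diet libraries were macrophage-like, a class in which each of the 18 macrophage markers used was found in at least 25% of cells. The libraries held 5513953 to 15619962 unique molecular identifiers (UMIs, which count RNA molecules), and both NASH-diet libraries were deeper than both control libraries. Median UMIs per macrophage-like cell were 3113 and 2838 in control and 8267 and 7540.5 in NASH-diet libraries, and median mitochondrial shares were 6.32% and 6.23% against 3.60% and 3.24%. The 2 control libraries stood apart from each other: 828 and 80 of their cells lay in a cluster led by Fkbp5, and 101 and 720 in one led by Marco. Libraries shared 2 to 8 barcodes per pair. Ptprc, which encodes CD45, was at 260 to 597 CPM (UMIs scaled to a common library total) in the macrophage-like sums and Mcam, which encodes CD146, at 0.317 to 1.19 CPM, while 197 endothelial-like cells remained after the sort. RNA of other cells moved with the diet in the same sums. The 15 hepatocyte markers summed to 632 and 789 CPM in control and 196 and 107 CPM in NASH-diet libraries, with none at 0. The 20 endothelial markers summed to 363 and 432 against 173 and 180 CPM, again with none at 0. Erythroid and platelet markers stood at 4769 CPM in control library 2 and at 286 to 495 CPM in the other libraries, with 0 to 3 of 10 at 0. The part of this RNA in the results was not tested except where stated.

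The sequences upstream of 6 of the genes are shown because Tfe3, one of the factors that bind CACGTG, changed with the diet. They were picked for small p-values and for holding or lacking the letters, so how many of them changed is no finding. Promoter windows of 300 bases, from 250 before to 50 after the RefSeq transcript start on mouse GRCm38.p6, were found for 34 of the 40 genes. The window held CACGTG in 12 of the 34 (35.3%), against 8.09% of 27025 genes with a window and 8.91% of 17492 protein-coding genes. The word reads the same on both strands, so one search covers both. The longer word TCACGTGA, which contains it and is also its own reverse complement, was in the windows of 4 of the 34 (11.8%), namely Ctsa, Ctsd, Atp6v1a and Gla, against 1.12% of all genes. By role the 6 letters were found in 5 of 10 proteases, 5 of 10 glycan-degrading enzymes, 1 of 4 membrane proteins and 1 of 2 pump subunits with a window, in 0 of 5 lipid genes and 0 of 3 MiT factors, and in the windows of Ctsa, Ctsd, Ctsf, Ctsl, Lgmn, Gaa, Gla, Glb1, Naglu, Sgsh, Lamp1 and Atp6v1a. The 250 bases before the start are printed 5′ to 3′ on the gene's strand with each CACGTG in capitals.
Gla (chrX:134601006-134601255, minus strand): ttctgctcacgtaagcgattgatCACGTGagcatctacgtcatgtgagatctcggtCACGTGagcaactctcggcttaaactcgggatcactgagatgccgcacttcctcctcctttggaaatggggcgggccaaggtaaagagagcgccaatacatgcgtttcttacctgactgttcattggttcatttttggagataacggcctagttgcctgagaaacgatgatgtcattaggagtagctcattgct
Ctsd (chr7:142387828-142388077, minus strand): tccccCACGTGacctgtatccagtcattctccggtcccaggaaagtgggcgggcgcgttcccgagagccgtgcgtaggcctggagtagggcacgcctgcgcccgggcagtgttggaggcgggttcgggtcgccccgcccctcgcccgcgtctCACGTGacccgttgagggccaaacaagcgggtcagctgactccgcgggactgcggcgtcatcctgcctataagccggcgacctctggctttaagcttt
Sgsh (chr11:119355511-119355760, minus strand): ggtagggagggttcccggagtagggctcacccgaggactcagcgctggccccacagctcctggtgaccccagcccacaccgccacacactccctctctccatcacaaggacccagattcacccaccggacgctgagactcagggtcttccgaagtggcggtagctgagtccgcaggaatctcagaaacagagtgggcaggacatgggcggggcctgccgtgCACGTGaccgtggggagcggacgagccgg
Lamp1 (chr8:13158911-13159160, plus strand): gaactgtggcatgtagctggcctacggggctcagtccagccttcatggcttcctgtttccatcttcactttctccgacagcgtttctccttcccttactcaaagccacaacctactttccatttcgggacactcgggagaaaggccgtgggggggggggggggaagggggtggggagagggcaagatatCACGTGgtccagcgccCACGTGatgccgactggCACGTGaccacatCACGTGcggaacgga
Cd68 (chr11:69666171-69666420, minus strand): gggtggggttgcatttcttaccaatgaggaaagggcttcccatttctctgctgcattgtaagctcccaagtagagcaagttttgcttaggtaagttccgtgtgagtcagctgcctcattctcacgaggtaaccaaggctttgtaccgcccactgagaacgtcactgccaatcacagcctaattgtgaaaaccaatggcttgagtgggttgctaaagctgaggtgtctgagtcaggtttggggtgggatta
Ctsz (chr2:174439040-174439289, minus strand): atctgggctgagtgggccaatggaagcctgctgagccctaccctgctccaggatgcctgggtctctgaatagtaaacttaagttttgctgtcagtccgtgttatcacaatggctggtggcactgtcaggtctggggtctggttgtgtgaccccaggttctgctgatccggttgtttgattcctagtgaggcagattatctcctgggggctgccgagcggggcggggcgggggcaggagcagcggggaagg
Gla and Ctsd each hold 2 copies of the 6 letters, Sgsh holds 1 and Lamp1 holds 4, while the stretches of Cd68 and Ctsz hold none. The first copy begins 227 bases before the RefSeq start in Gla, 245 in Ctsd, 29 in Sgsh and 61 in Lamp1. A match of letters is a description of the sequence and not evidence of binding.

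On mm10, the same assembly, GENCODE places Gla at chrX:134588149-134601125, Ctsd at chr7:142375911-142388038, Sgsh at chr11:119343425-119355536, Cd68 at chr11:69664213-69666153, Ctsz at chr2:174427493-174439039, Atp6v0d2 at chr4:19876841-19922605 and Atp6v0c at chr17:24163866-24169702, all on the minus strand. The GENCODE starts of Gla, Ctsd and Sgsh lie inside the stretches printed above, so the distances given there hold for the RefSeq starts only. Whether reads were counted by strand is not given in the sources used here. It is therefore not known here whether UMIs of a gene could include reads of one that overlaps it on the other strand. Such overlaps are annotated for Ctsz (Nelfcd), Sgsh (Card14), Ppt1 (Cap1), Hexa (Tmem202), Grn (Fam171a2), Lamp1 (Grtp1), Atp6v1b2 (Slc18a1), Ctsa, Ctsb, Ctsc and Npc1, and Glb1 overlaps Tmppe on its own strand.

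In macrophage-like cells the lysosomal genes did not move as one block with the NASH diet. Summed, the 40 genes made up 3.18% and 3.26% of UMIs in the control and 3.02% and 3.32% in the NASH-diet libraries, and these ranges overlapped. The mean difference was -0.0503 percentage points, and 0.317 with a stricter cell filter (at least 500 genes, at most 5% mitochondrial UMIs). Of the 39 genes tested, 12 rose, 8 fell and 19 were not called. The 12 that rose were Ctsz, Ctsd, Ctss, Ctsh, Gla, Fuca1, Naglu, Hexa, Ppt1, Npc2, Cd68 and Atp6v0d2. The 8 that fell were Ctsf, Sgsh, Gaa, Neu1, Smpd1, Scarb2, Atp6v0c and Tfe3.

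A call here is an adjusted p under 0.05 (edgeR's quasi-likelihood test on UMIs summed per library, with Benjamini-Hochberg adjustment over 10290 genes), and 39 of the 40 genes passed the filter on low counts. Of all genes tested, 23.2% were called higher and 21.2% lower in the NASH-diet libraries. The shares among the 39 lysosomal genes were 30.8% and 20.5%, and their median log2 fold change was 0.14 against -0.02 over all genes. The scaling between libraries moves this balance: the TMM factors used here differ by 0.38 on the log2 scale between the diets, and with library totals alone 9 of the 39 were higher and 14 lower. The higher genes then made up 39.1% of the called lysosomal genes, against 60.0% with TMM, and the median was -0.24 against -0.40 over all genes. Among all called genes, the higher ones made up 24.5% with library totals alone and 52.2% with TMM. No called gene changed direction under any of the 19 other settings tried, and 13 of the 20 kept their call in all of them. These 13 were Ctsz, Ctsd, Ctss, Gla, Fuca1, Ppt1, Npc2, Cd68, Atp6v0d2, Sgsh, Smpd1, Atp6v0c and Tfe3.

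**Figure D1:**
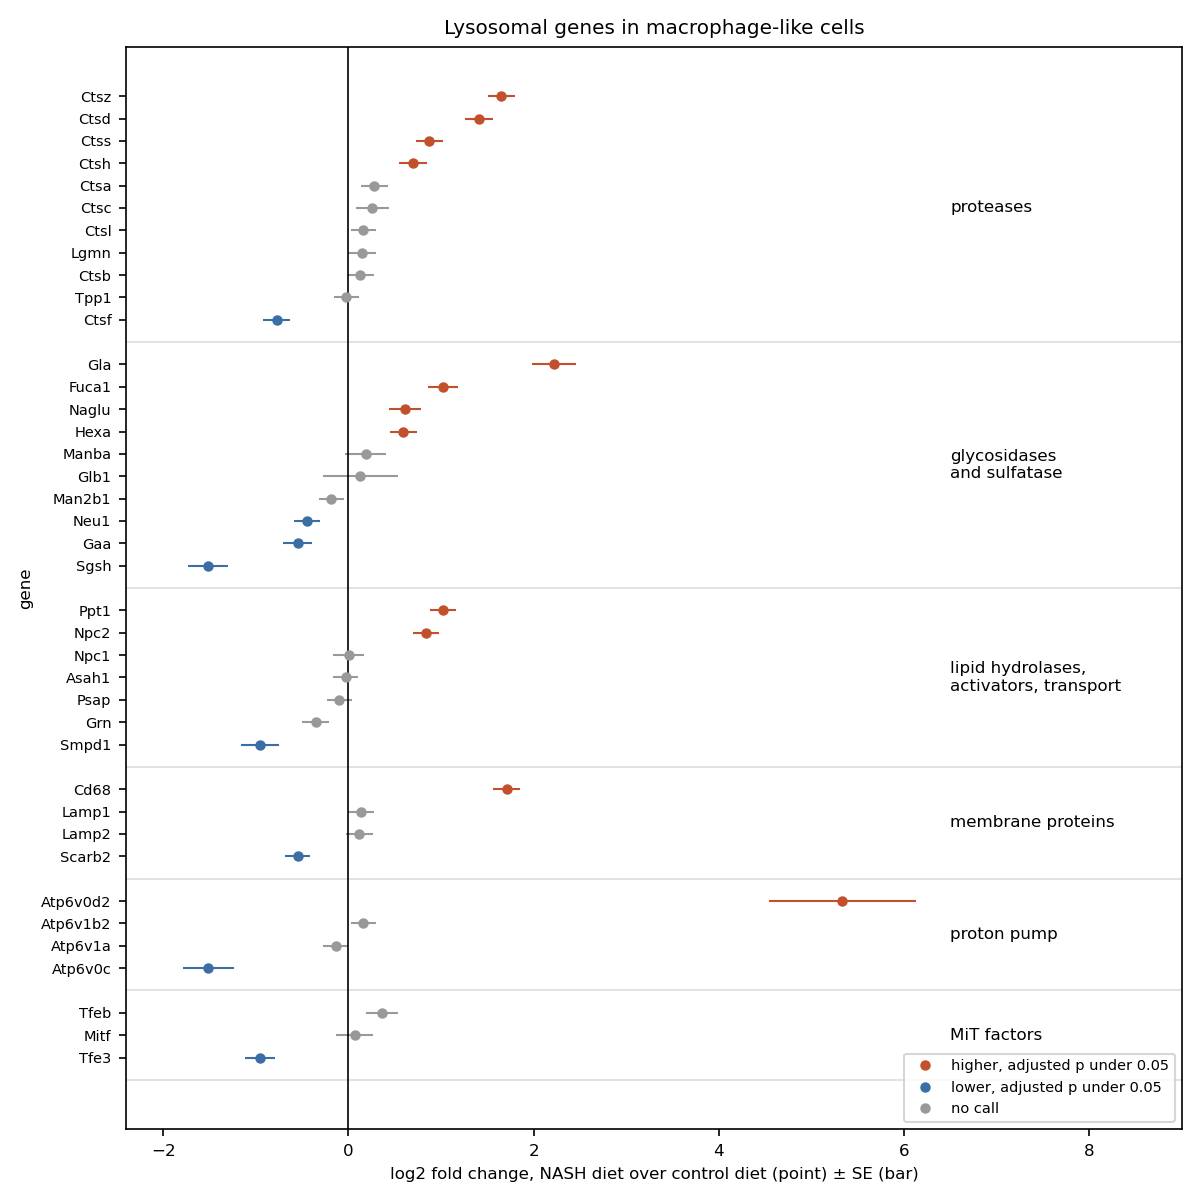
Log2 fold change (NASH diet over control diet, x axis) with its standard error for the 39 lysosomal genes tested in macrophage-like cells, grouped by role on the y axis, from 2 libraries per diet. Orange points are genes called higher (12), blue points genes called lower (8) and grey points genes without a call (19); each of the groups with more than 3 genes holds calls in both directions.

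Values below are CPM scaled by the TMM factors, with libraries in the order control 1, control 2, NASH 1 and NASH 2. Among the proteases, Ctsz (cathepsin Z, a cysteine carboxypeptidase) was at 350.3, 400.4, 1221 and 1138 CPM, a log2 fold change of 1.65 ± 0.15 (SE, n = 2 libraries per diet, adjusted p = 2.04e-05). Ctsd (cathepsin D, the main aspartic protease of the lysosome) was at 1086, 1301, 3304 and 3037 CPM, a log2 fold change of 1.41 ± 0.15 (adjusted p = 5.73e-05). In both genes each NASH-diet library lay more than 2 times above each control library. Ctss (cathepsin S, a cysteine protease that trims the invariant chain of MHC class II) was at 2967, 2684, 4796 and 5548 CPM, a log2 fold change of 0.87 ± 0.15 (adjusted p = 0.000759), also with no overlap. Ctsh (cathepsin H, an aminopeptidase) rose by 0.70 ± 0.15 (adjusted p = 0.00348), which was no longer called without NASH library 2 (adjusted p = 0.0585) or with library totals alone (0.0963).

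The most abundant protease did not pass the test. Ctsb (cathepsin B, a cysteine protease) was at 5892, 6070, 6046 and 7032 CPM, and its diet ranges overlapped (log2 fold change 0.13 ± 0.14, adjusted p = 0.491). Lgmn, the asparaginyl endopeptidase that matures other cathepsins, was at 2594, 2865, 2753 and 3290 CPM (log2 fold change 0.15 ± 0.15). Ctsl (cathepsin L, an endopeptidase) was at 389.4, 399.1, 410.7 and 472.1 CPM (log2 fold change 0.16 ± 0.14). Ctsa, Ctsc and Tpp1 were not called either, with log2 fold changes of 0.28, 0.26 and -0.02. Without control library 2 Ctsc was called higher (log2 fold change 0.54, adjusted p = 0.0102), as it was when cells were named one by one (0.54, adjusted p = 0.041). Ctsf (cathepsin F, a cysteine protease) was the protease that fell, from 86.4 and 90.7 to 47.5 and 56.0 CPM (log2 fold change -0.77 ± 0.14, adjusted p = 0.00142). Ctsk (cathepsin K, a collagen-degrading protease of osteoclasts) did not reach the filter, with 0 and 2 UMIs in the control and 16 and 15 in the NASH-diet libraries.

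Glycan-degrading enzymes moved in both directions. Gla (alpha-galactosidase A, which removes terminal galactose from globotriaosylceramide) was at 6.83, 7.43, 28.3 and 37.7 CPM, a log2 fold change of 2.22 ± 0.23 (adjusted p = 4.91e-05). Fuca1 (alpha-fucosidase) was at 108, 79.1, 184 and 197 CPM, a log2 fold change of 1.02 ± 0.16 (adjusted p = 0.000547). Hexa, the alpha subunit of beta-hexosaminidase, was at 410.1, 482.7, 706 and 642 CPM, a log2 fold change of 0.60 ± 0.15 (adjusted p = 0.00688). The libraries of the diets did not overlap for these 3 genes. Naglu, which acts on heparan sulfate, rose by 0.61 ± 0.17 from 22.8 and 22.3 CPM to 36.7 and 32.4 CPM. The calls for Hexa and Naglu were lost without NASH library 1 (adjusted p = 0.0911 and 0.103) and with library totals alone. Naglu lost its call in 7 of the 19 other settings, DESeq2 and thinning among them (adjusted p = 0.0891 and 0.26).

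Sgsh (heparan N-sulfatase, which also acts on heparan sulfate) fell from 51.5 and 34.2 CPM to 16.4 and 13.9 CPM, a log2 fold change of -1.51 ± 0.22 (adjusted p = 0.00036). Naglu and Sgsh act on the same substrate and were called in opposite directions. Gaa (acid alpha-glucosidase, which degrades glycogen) fell by 0.55 ± 0.15 and Neu1 (a sialidase) fell by 0.44 ± 0.14 on the log2 scale. Neither call held without NASH library 1 (adjusted p = 0.0686 and 0.18) or NASH library 2 (0.119 and 0.0994), that for Gaa was lost without control library 1 (0.0514), and that for Neu1 without control library 2 (0.0743). Glb1, Man2b1 and Manba had log2 fold changes of 0.13, -0.19 and 0.19 and were not called.

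Among the genes of lipid breakdown and transport, Ppt1 (palmitoyl-protein thioesterase, which removes fatty acids from proteins) was at 76.2, 74.9, 144 and 162 CPM, a log2 fold change of 1.02 ± 0.14 (adjusted p = 0.000207). Npc2 (the soluble cholesterol carrier of the lysosome) was at 1078, 1069, 1844 and 2002 CPM, a log2 fold change of 0.84 ± 0.14 (adjusted p = 0.00067). Neither gene overlapped between the diets. Npc1, the membrane protein to which Npc2 hands cholesterol, was at 52.8, 39.4, 44.8 and 47.9 CPM, with overlap (log2 fold change 0.00 ± 0.17, adjusted p = 0.992).

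Smpd1 (acid sphingomyelinase) fell from 24.7 and 20.3 CPM to 10.8 and 12.4 CPM, a log2 fold change of -0.96 ± 0.20 (adjusted p = 0.00312). Psap (prosaposin, the precursor of the saposins that present lipids to hydrolases) was the most abundant of this group, at 4818, 4366, 4357 and 4235 CPM (log2 fold change -0.10 ± 0.14, adjusted p = 0.601). Grn (progranulin) was at 1980, 2065, 1481 and 1683 CPM, lower in both NASH-diet libraries without passing the test (log2 fold change -0.35 ± 0.14, adjusted p = 0.0613). With the replicate number as a block, Grn was called lower (adjusted p = 0.0392), as it was after thinning (0.0298) and with library totals alone (0.0017). Asah1 (acid ceramidase) had a log2 fold change of -0.03.

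Cd68, a heavily glycosylated membrane protein of macrophage lysosomes, was at 284.6, 252.8, 849 and 912 CPM, a log2 fold change of 1.71 ± 0.14 (adjusted p = 1.61e-05). Both NASH-diet libraries were about 3 times above the control libraries. Lamp1 was at 987, 1103, 1159 and 1143 CPM (log2 fold change 0.14 ± 0.14, adjusted p = 0.443) and Lamp2 had a log2 fold change of 0.12, so neither of these abundant membrane proteins passed the test. Scarb2, which carries beta-glucocerebrosidase to lysosomes, fell from 347 and 309 CPM to 216 and 233 CPM (log2 fold change -0.55 ± 0.14, adjusted p = 0.00766). Without NASH library 1 or NASH library 2 Scarb2 was not called (adjusted p = 0.112 and 0.0624).

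Atp6v0d2, a pump subunit known from osteoclasts and some macrophages, had 7 UMIs in control library 1 and 0 in control library 2, against 298 and 213 in the NASH-diet libraries. These counts equal 2.08, 0, 47.2 and 26.2 CPM before TMM scaling, where 3 counts, the floor used here, would be 1.10 CPM in control library 2. The ratio of the pooled UMIs was 30.7 (95% interval 14.8 to 76.8, exact, covering counting error only), and the fitted difference had an adjusted p of 0.00733. Atp6v1b2 and Atp6v1a, subunits of the pump's catalytic part, had log2 fold changes of 0.16 and -0.14 and were not called. Atp6v0c, the subunit of the proton-carrying ring, fell from 18.1 and 13.9 CPM to 4.57 and 6.54 CPM (log2 fold change -1.51 ± 0.27, adjusted p = 0.00119). Its low UMI count is uncertain, since the pseudogene copies Atp6v0c-ps1 and Atp6v0c-ps2 are annotated. How alike the copies are, and their part in the count, was not tested.

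Of the MiT factors, Tfe3 was at 76.7, 76.5, 33.6 and 45.1 CPM, a log2 fold change of -0.95 ± 0.17 (adjusted p = 0.000934), with no overlap. Tfeb was at 21.8, 20.0, 25.8 and 28.1 CPM (log2 fold change 0.36 ± 0.17, adjusted p = 0.11) and Mitf at 24.4, 31.6, 33.2 and 25.5 CPM with overlap (log2 fold change 0.07 ± 0.20, adjusted p = 0.805). RNA levels do not show where these factors were in the cell. CACGTG was in the promoter windows of 3 of 10 genes that rose, 3 of 8 that fell and 6 of 15 without a call. TCACGTGA was in those of 2 of 10, 0 of 8 and 2 of 15. With so few genes, a link between the letters and a direction was not tested. Cd68 and Ctsz, whose printed stretches hold no copy, rose, Gla and Ctsd with 2 copies rose, Sgsh with 1 copy fell, and Lamp1 with 4 copies was not called. The printed genes were picked for their p-values and letters, so their directions are no finding.

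**Figure D2:**
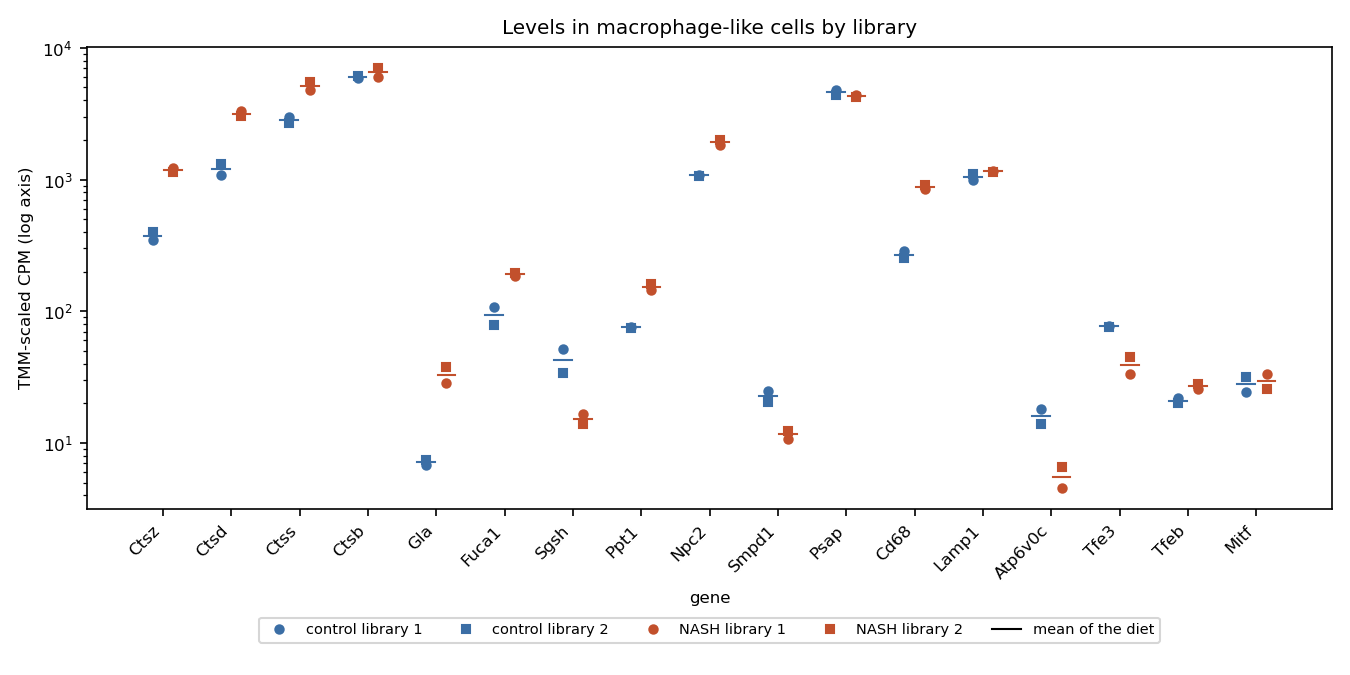
TMM-scaled CPM (log y axis) of 17 lysosomal genes (x axis) in macrophage-like cells; circles and squares are libraries 1 and 2 of each diet, blue is control, orange is NASH diet and short lines are the means of 2 libraries. Ctsz, Ctsd, Gla and Cd68 lie above control in both NASH-diet libraries, Sgsh, Smpd1, Atp6v0c and Tfe3 lie below, and Ctsb, Psap and Lamp1 lie at almost the same level.

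Depth and other-cell RNA moved with the diet, and the counts were repeated with each held down. With every cell thinned to 1000 UMIs, 11 genes were higher and 8 lower, where 1403 and 1144 of all 7126 genes tested were. In the macrophage-like cells at or under the median share of hepatocyte and endothelial UMIs the counts were again 11 and 8. Over all genes they were 1572 and 1258 of 9415. Leaving out 1 library at a time gave a median log2 fold change of 0.063 to 0.22 for the lysosomal genes. Over all genes the median was then -0.036 to 0.0086. A cell filter of at least 500 genes and at most 5% mitochondrial UMIs gave 11 and 6, with 1314 and 1228 of 9572 over all genes.

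The control macrophage-like cells lay mostly in the Fkbp5-led and Marco-led clusters, and almost all of the NASH-diet cells in 4 other clusters that held few or no control cells. They were led by Folr2 and Apoc1 (144 and 338 cells in the NASH-diet libraries), Mmp12 and Mmp13 (268 and 294), Cx3cr1 and Olfml3 (139 and 276), and Gpnmb, Fabp5 and Cd63 (174 and 111). Lysosomal genes were left out of the genes that drew the clusters, and cluster levels are given as CPM per cluster and library, with no test. Summed, the 40 genes took similar shares of each, from 2.75% of UMIs in the Cx3cr1-led cells of NASH library 1 to 3.56% in the Gpnmb-led cells of NASH library 2.

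Individual genes differed more between these clusters. Atp6v0d2 was at 109 and 70.9 CPM in the Gpnmb-led and 52.1 and 57.4 CPM in the Mmp12-led cells, but at 2.19 and 2.48 CPM in the Folr2-led and 3.54 and 5.60 CPM in the Cx3cr1-led cells. Ctsd was highest in Gpnmb-led cells, at 4022 and 3967 CPM, and lowest in Cx3cr1-led cells, at 1652 CPM in each library. Gla followed the same order, with 39.8 and 64.7 CPM against 12.4 and 20.1 CPM. Ctsz and Cd68 too were highest in Gpnmb-led and lowest in Cx3cr1-led cells, with Cd68 at 993 and 1134 against 604 and 718 CPM.

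Other members had other patterns. Ctsc (cathepsin C, which activates serine proteases of immune cells) was at 1898 and 1904 CPM in Folr2-led cells and 731 and 733 CPM in Gpnmb-led cells. Scarb2 was at 270.1 and 276 CPM in Folr2-led and 124 and 114 CPM in Gpnmb-led cells, and Ctsf at 61.3 and 75.8 against 20.5 and 26.7 CPM. Grn and Ctsl were highest in Folr2-led and lowest in Cx3cr1-led cells in both libraries, Ctsl at 425.5 and 536 against 220.4 and 213 CPM. Ctss had its highest level in Cx3cr1-led cells, at 5561 and 6195 CPM, and its lowest in Folr2-led cells, at 3350.3 and 4246 CPM. Hexa and Ctsa varied little, by 1.17 and 1.13 times between the highest and lowest cluster in NASH library 1 and by 1.31 and 1.21 times in NASH library 2. Ctsk reached 9.32 and 10.3 CPM in the Gpnmb-led cells and at most 1.38 CPM in the other 3 clusters of the NASH-diet libraries.

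**Figure D3:**
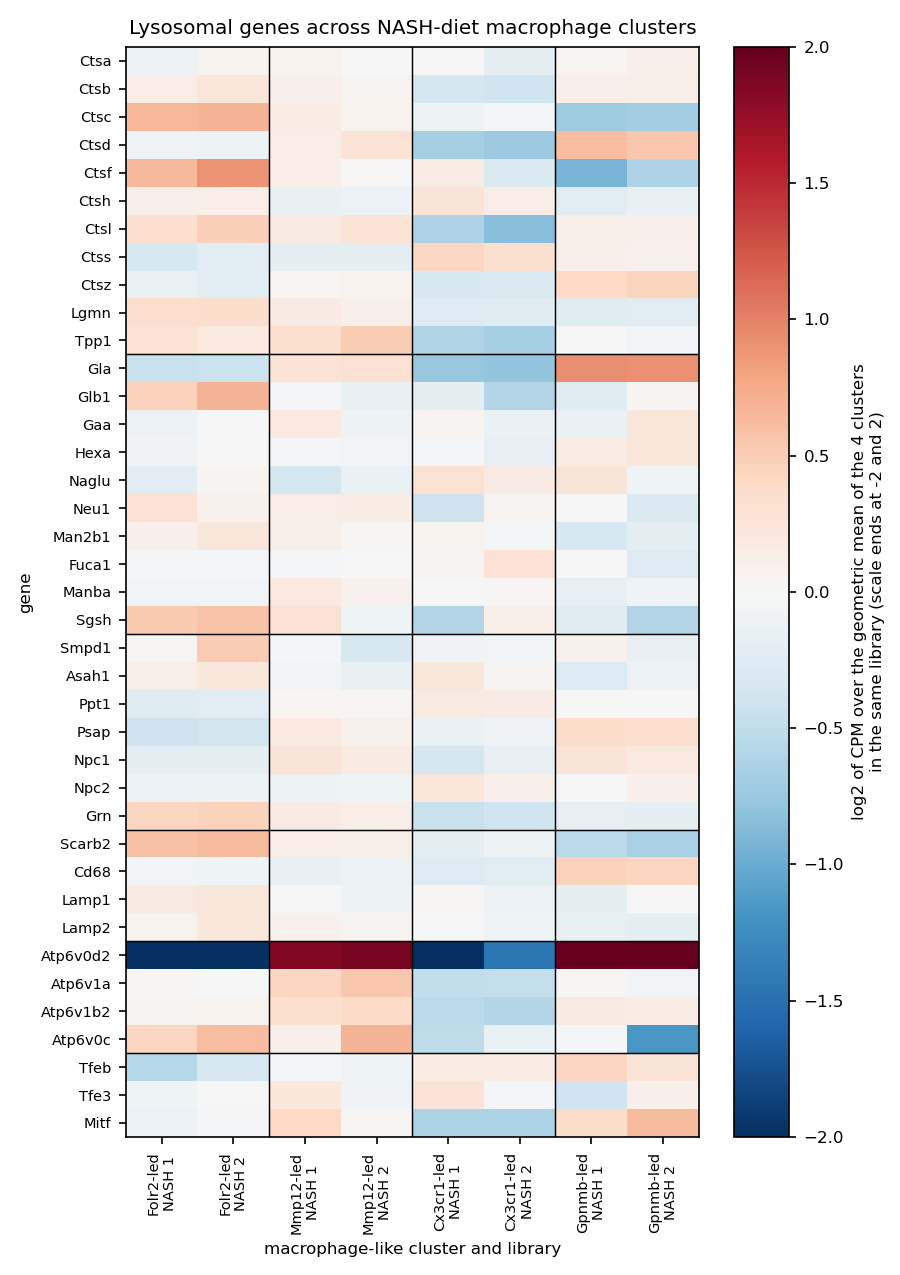
Log2 of CPM over the geometric mean of the 4 clusters in the same library (colour, with the scale ending at -2 and 2) for 39 lysosomal genes (rows, by role) in 4 macrophage-like clusters of the 2 NASH-diet libraries (columns); Ctsk, at 0 in a cluster, is left out. The 2 libraries of a cluster show like colours for Atp6v0d2, Gla, Ctsd, Ctsc, Scarb2 and Ctsl, and Gpnmb-led cells are high in Atp6v0d2, Gla and Ctsd and low in Ctsc, Ctsf and Scarb2.

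The Folr2-led cluster also held 28 and 34 control cells, which allows levels to be set side by side within it, with few UMIs and no test. Its control cells were shallow, with median UMIs of 1706.5 and 1597.5, against 9366.5 and 7989 in its NASH-diet cells. Fkbp5-led cells of control library 1 had a median of 3204.5 and Marco-led cells of control library 2 one of 2863.5. The part of this depth gap in the values was not tested. Ctsd was at 1396 and 1528 CPM in the control cells and at 2495 and 2546 CPM in the NASH-diet cells of this cluster. Ctsz was at 610 and 661 against 924 and 897 CPM, and Cd68 at 583 and 609 against 688 and 787 CPM. Scarb2 was at 325.2 and 259 CPM in its control cells, a range that holds both NASH-diet values. Without the Gpnmb-led cluster the macrophage-like class still had 12 lysosomal genes higher and 8 lower, where 2235 and 2020 of all 9998 genes tested were.

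Kupffer-like cells are the macrophage-like clusters in which Clec4f and Vsig4, markers of resident liver macrophages, were detected in at least 80% of cells, with 958 and 837 control and 412 and 635 NASH-diet cells. In them 11 of 39 lysosomal genes rose and 6 fell, where 21.1% and 18.0% of 9722 genes tested did. After thinning to 1000 UMIs, 11 were called in all, and the count over all genes in that fit is not given here. The log2 fold changes were 1.61 for Ctsz, 1.40 for Ctsd, 2.08 for Gla, 1.63 for Cd68 and 0.94 for Ppt1, and -1.34 for Sgsh, -0.92 for Smpd1 and -0.96 for Tfe3. Atp6v0d2 was at 37.7 and 29.9 CPM in the NASH-diet Kupffer-like cells, against 1.88 and 0 CPM in control. These cells are part of the macrophage-like class, so the values are not independent of those above. Their control cells lay mostly in the Fkbp5-led and Marco-led clusters and their NASH-diet cells in the Folr2-led and Mmp12-led clusters. Timd4, another Kupffer cell marker used here, was found in 69.5% of Fkbp5-led and 70.6% of Marco-led cells. It was found in 43.9% of Folr2-led and 17.1% of Mmp12-led cells. Gpnmb was found in 0.11%, 0.24%, 13.6% and 52.5% of cells of these clusters, in the same order. The name Kupffer-like thus does not show that the diets were compared within one kind of cell. The part of this make-up in the calls was not tested. In cycling cells, a class with C1q RNA in most cells and led by cell cycle genes, 15 of 36 lysosomal genes rose and Tfe3 fell, against 13.9% and 10.7% of 6602 genes. Most control cells of this class lay in a cluster led by Top2a and all its NASH-diet cells in one led by Birc5. C1q RNA in the class was at 63.5% and 63.9% of the macrophage-like level in control and at 78.6% and 67.7% under the NASH diet, and its part in the calls was not tested. The cycling count was 8 in both directions with DESeq2 and 6 with the stricter cell filter. Counts over all genes in those fits are not given here. The genes of cycling cells included Ctsb (2585, 2717, 4654 and 4654 CPM, log2 fold change 0.81 ± 0.11, adjusted p = 3.83e-05). Ctsb was not called in macrophage-like cells, a class that does not include the cycling cells. The difference between these classes was not tested.

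Across all classes, levels are given as CPM without TMM scaling. Macrophage-like cells had the highest mean of 9 classes for 22 of the 40 genes in control and the highest of 11 classes for 24 in NASH-diet libraries. In 15 of the 22 and 12 of the 24 no library of that class overlapped the next class. The same counts were not made over all genes, so these describe the 40 genes alone and show no enrichment. For Ctsb the mean was 6799 ± 165 CPM (SD, n = 2) in control macrophage-like cells and 2874 ± 143 in the next class, the cycling cells. T cell-like cells had Ctsb at 329 and 328 CPM in control, 4.93% and 4.74% of the macrophage-like level, while their RNA of C1qa, C1qb and C1qc, made by macrophages, stood at 3.13% and 3.31% of it.

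Some lysosomal genes were highest outside the macrophages. Ctsl was at 2390 and 2403 CPM in control endothelial-like cells and 1489 and 1517 CPM in control plasmacytoid dendritic cell-like cells, against 442 and 455 CPM in macrophage-like cells. Ctsh was highest in plasmacytoid dendritic cell-like cells under both diets, at 1214 ± 38.4 and 1430 ± 124 CPM (SD, n = 2). Npc1 was highest there too, at 98.7 ± 12.7 CPM in control against 52.4 CPM in macrophage-like cells. Ppt1 was highest in dendritic cell-like cells, at 629.6 ± 282 CPM in control and 534.6 ± 132 CPM under the NASH diet, where macrophage-like cells had means of 85.9 and 134 CPM. Ctsz changed place: plasmacytoid dendritic cell-like cells led in control at 772 ± 26.5 CPM, and macrophage-like cells led under the NASH diet at 1032 ± 36.8 CPM. Ctsk reached 188 CPM, from 17 UMIs, in the 12 stellate or fibroblast-like cells of NASH library 1, and 27.9 CPM, from 2 UMIs, in the 8 of NASH library 2.

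**Figure D4:**
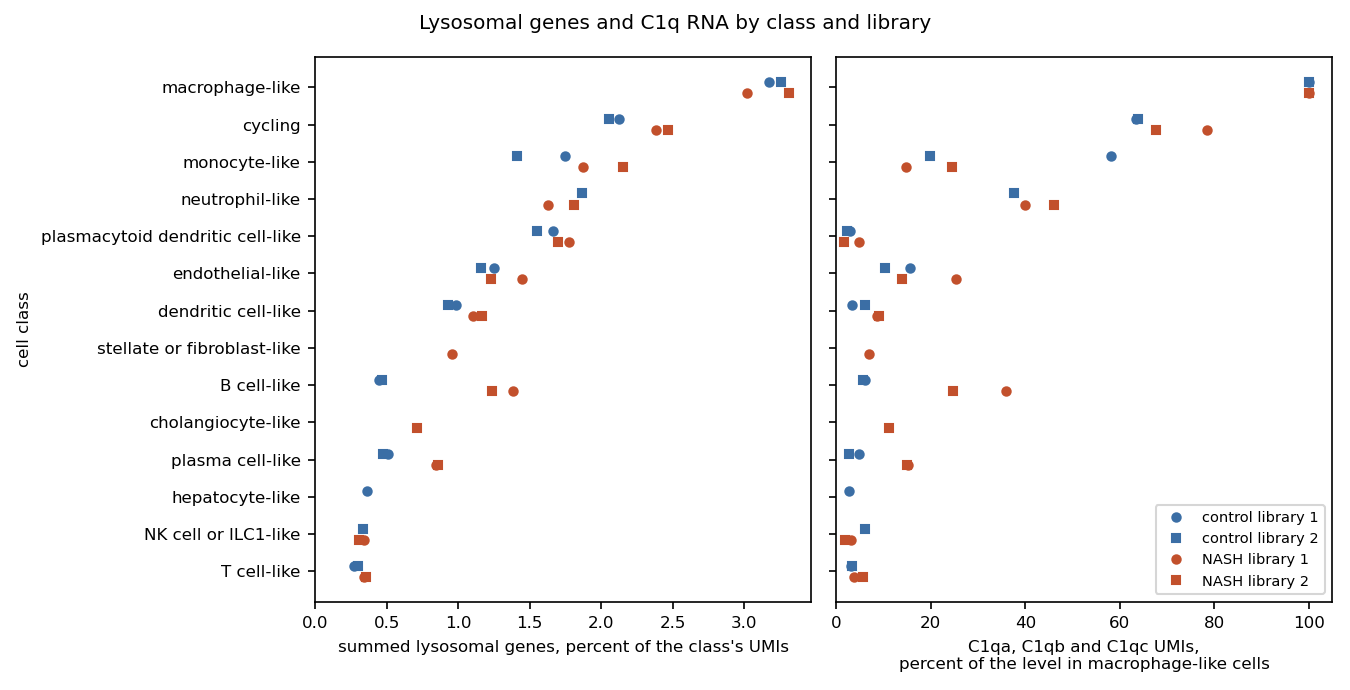
Left, summed UMIs of the 40 lysosomal genes as a percent of all UMIs of a class (x axis) for each class (y axis) and library with at least 10 cells; right, summed C1qa, C1qb and C1qc as a percent of the level in macrophage-like cells of the same library. Circles and squares are libraries 1 and 2, blue is control and orange is NASH diet; macrophage-like cells lie at 3.02% to 3.32%, and B cell-like cells are higher under the NASH diet in both panels.

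Diet differences were tested in 6 other classes, each with at least 10 cells in every library, and each was then set against macrophage-like cells by the interaction of class and diet. In plasmacytoid dendritic cell-like cells (75 and 171 control, 49 and 51 NASH-diet cells), which sense viral nucleic acids in endosomes, 0 of 27 lysosomal genes were called by edgeR, against 2.55% of 3530 genes. None of the 27 reached an unadjusted p under 0.05, and DESeq2 also called 0, but 6 were called when cells were named one by one by their own markers in place of their clusters. C1q RNA was at 1.52% to 4.76% of the macrophage-like level in these cells. Ctsz was at 845, 876, 961 and 919.5 CPM there (log2 fold change 0.13 ± 0.12) and Cd68 at 329.6, 328, 447 and 322 CPM (0.23 ± 0.17).

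For 9 of 39 lysosomal genes the diet difference in plasmacytoid dendritic cell-like cells was unlike that in macrophage-like cells, where 8.62% of 9471 genes were. The interaction was estimated in a joint fit of both classes, so it need not equal the gap between log2 fold changes of the separate fits. It was -1.42 ± 0.18 on the log2 scale for Ctsz (adjusted p = 3.23e-12) and -1.40 ± 0.21 for Cd68 (adjusted p = 4.53e-09). Both kept their call in all 16 other settings that could be fitted. Ctss, Npc2 and Ctsd differed by -0.99, -0.79 and -0.97, but the calls for Ctss and Ctsd were lost without NASH library 2 and that for Npc2 without NASH library 1. The count of 9 became 2 with DESeq2, 3 with the stricter cell filter and 5 without NASH library 2.

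In endothelial-like cells (45 and 106 control, 31 and 15 NASH-diet cells) Ctsl fell, from 2696 and 2664 CPM to 807 and 894 CPM after TMM scaling (log2 fold change -1.66 ± 0.20, adjusted p = 8.75e-05). The libraries did not overlap, and the difference from macrophage-like cells was -1.71 ± 0.23 (adjusted p = 2.93e-10), a call kept in all 16 other settings. Another 7 of 25 lysosomal genes rose: Ctsb, Ctsc, Ctsh, Ctss, Ctsz, Npc2 and Cd68. Of 3451 genes tested, 4.23% rose and 5.01% fell. C1q RNA in these cells was at 10.3% and 15.5% of the macrophage-like level in control and at 25.4% and 13.9% under the NASH diet, and its part in the genes that rose was not tested. The 8 calls became 4 with DESeq2 and 2 after thinning to 1000 UMIs, and fewer without control library 2 or NASH library 1. Counts over all genes in those fits are not given here. Besides Ctsl, the differences from macrophage-like cells were called for Ctsc, Ctsb and Psap, 4 of 40 in all, against 2.73% of 10028 genes, and only that of Ctsl remained called without control library 1 or control library 2. Without NASH library 1 the count was 2.

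B cell-like cells gave counts that depended on where the class was bounded. With 41 and 55 control and 43 and 93 NASH-diet cells, 15 of 25 lysosomal genes rose, where 8.75% of 2561 genes did, with Ctsb at 447, 466, 2148 and 1732 CPM. C1q RNA in the same cells was at 6.11% and 5.68% of the macrophage-like level in control and 35.8% and 24.7% under the NASH diet. At a Leiden resolution of 2.0 the NASH-diet B cell-like cells numbered 28 and 59, their C1q RNA was at 2.40% and 2.01%, and 0 lysosomal genes were called. The 40 genes then took 0.384% and 0.438% of UMIs in control and 0.396% and 0.375% in NASH-diet B cell-like cells. The differences from macrophage-like cells (16 of 39 genes, against 7.36% of 9457) also depended on that boundary and on single libraries, with 7 without control library 2 and 10 without NASH library 1, and those of Ctsb, Psap, Lgmn, Grn and Ctsd changed sign at the finer resolution.

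Dendritic cell-like cells, in clusters led by Xcr1, Cd209a and Fscn1 (10 and 29 control, 197 and 157 NASH-diet cells) had 1 call among 31 lysosomal genes, where 2.12% of 6122 genes were called. Ctsd was at 101, 107, 304 and 292 CPM (log2 fold change 1.51 ± 0.25, adjusted p = 0.00177), from 11, 20, 513 and 427 UMIs, below its level in macrophage-like cells of every library. C1q RNA in these cells was at 3.22% and 6.02% of the macrophage-like level in control and at 8.53% and 9.12% under the NASH diet, and its part in the Ctsd call was not tested. The make-up of the class also moved with the diet: the Xcr1-led cluster held 6 and 18 control and 49 and 62 NASH-diet cells, the Cd209a-led cluster 4 and 7 against 96 and 53, and the Fscn1-led cluster 0 and 4 against 52 and 42. The count moved between 0 and 7 over the other settings. It was 5 with the replicate number as a block, 6 without control library 2, and 2 without control library 1 or without NASH library 2. Fuca1, Ppt1, Cd68 and Lamp1 differed from macrophage-like cells in their diet difference (4 of 39, against 5.78% of 9980 genes), and all 4 calls were lost without NASH library 1 or without NASH library 2. Fuca1 was at 220.3, 252, 156 and 188 CPM in dendritic cell-like cells, the reverse order of that in macrophage-like cells, without passing the test in these cells alone (log2 fold change -0.47 ± 0.23, adjusted p = 0.405).

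In monocyte-like cells (10 and 14 control, 180 and 145 NASH-diet cells), 2 of 33 lysosomal genes were called, against 1.65% of 5459 genes. Ctsd was at 494, 230.1, 806 and 949 CPM (log2 fold change 1.33 ± 0.30, adjusted p = 0.0353), and Atp6v0c fell by 2.97 ± 0.68 on the log2 scale, from 2 and 5 UMIs in control and 6 and 9 in the NASH-diet libraries. DESeq2 and the fit with the replicate block called 0, as did the fit without NASH library 2, and 1 was called without NASH library 1, 6 without control library 1 and 8 without control library 2. C1q RNA in these cells was at 58.2% and 19.7% of the macrophage-like level in control and at 14.8% and 24.4% under the NASH diet. No diet difference was called unlike that of macrophage-like cells by edgeR or DESeq2, with 6 of 39 at an unadjusted p under 0.05 and 1.67% of 9457 genes called, but 4 were called without control library 1 and 1 without control library 2. T cell-like cells (11 and 29 control, 48 and 54 NASH-diet cells) had 0 of 14 called by edgeR and by DESeq2, with 2 at an unadjusted p under 0.05 and 0.520% of 1731 genes called; without control library 2 the count was 1. Their difference from macrophage-like cells was called for 0 of 39 by both tools, with 3 at an unadjusted p under 0.05 and 1.00% of 9371 genes called. Neutrophil-like and NK cell or ILC1-like cells had under 10 cells in a control library and were not tested. Plasma cell-like cells (15 and 18 control, 14 and 24 NASH-diet cells) had at least 10 cells in every library but were not among the classes chosen for testing. The 40 genes took 0.507% and 0.473% of their UMIs in control and 0.846% and 0.856% under the NASH diet, and their C1q RNA was at 4.77% and 2.62% against 15.3% and 14.9% of the macrophage-like level.

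**Figure D5:**
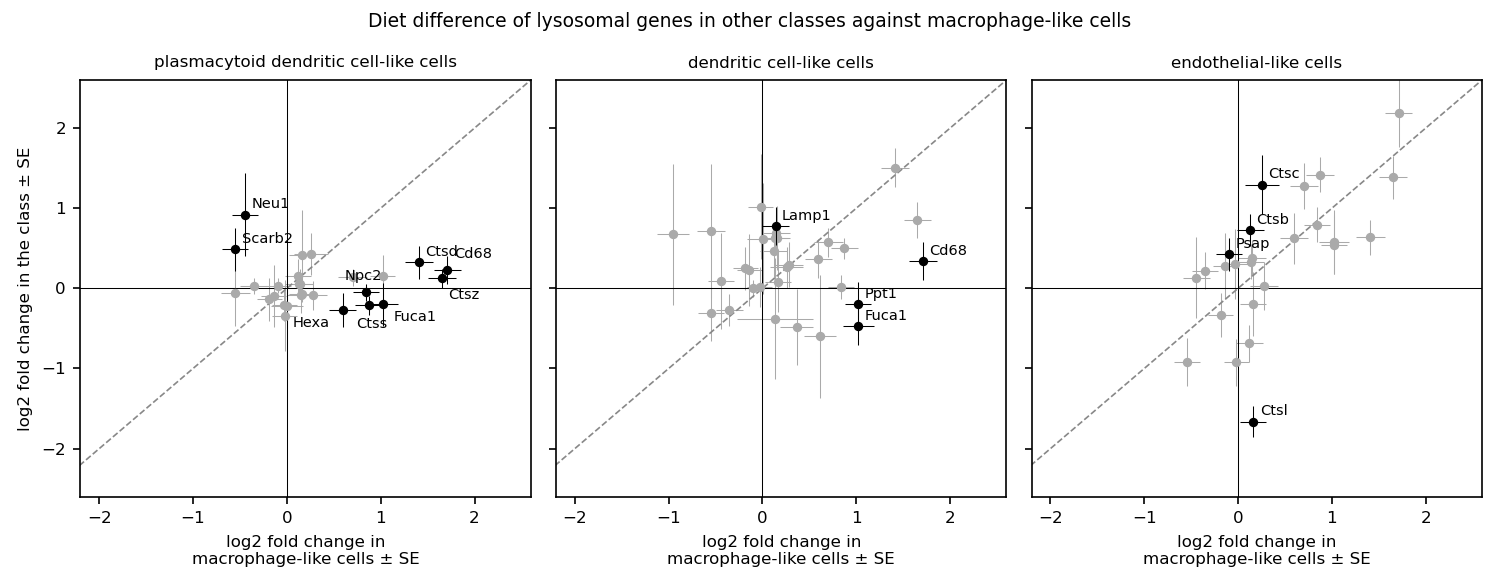
Log2 fold change of each lysosomal gene tested in both classes (NASH diet over control diet, with standard errors, 2 libraries per diet) in macrophage-like cells (x axis) and in plasmacytoid dendritic cell-like, dendritic cell-like and endothelial-like cells (y axes); Atp6v0d2 is left out, the dashed line marks equal values and black, named points differ between the classes (adjusted p under 0.05 for the interaction). Ctsz and Cd68 lie at 1.65 and 1.71 in macrophage-like and at 0.13 and 0.23 in plasmacytoid dendritic cell-like cells, and Ctsl lies at -1.66 in endothelial-like cells.

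A second list of 93 lysosomal genes that are not among the 40 was read in the same macrophage-like fit. Of its 82 tested genes 32 rose and 13 fell, beside the 23.2% and 21.2% over all genes, with a median log2 fold change of 0.28. With library totals alone the split was 14 higher and 33 lower, where 1291 and 3988 of all 10290 genes were. Fewer genes were called without NASH library 1 or without NASH library 2, both in this list and over all genes. Of the other pump subunits 8 of 14 rose and 1 fell, among them Atp6v1f (log2 fold change 0.80), Atp6v0e (0.79) and Atp6v1c1 (0.75), while Atp6ap1, an accessory subunit, fell by 0.49. Of 12 tested genes of nutrient sensing at the lysosome 6 rose, including the 5 Ragulator subunits Lamtor1 to Lamtor5, and Fnip1 and Tfec fell. Lamtor5 rose most, from 115 and 97.8 CPM to 228 and 241 CPM. Of 7 cathepsin inhibitors 2 passed the filter and both rose: Cstb, a cytosolic inhibitor of cysteine cathepsins, from 231 and 287 CPM to 1023 and 882 CPM (log2 fold change 1.88 ± 0.16), and Cst3, a secreted one, by 0.84.

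The largest difference in the second list was that of Cd63, a tetraspanin of late endosomes, which rose from 8.66 and 21.3 CPM to 1102 and 894 CPM (log2 fold change 6.08 ± 0.44, adjusted p = 0.000396). Gusb (beta-glucuronidase) rose by 1.19. Among the genes that fell were Plbd1, a phospholipase B-like protein (log2 fold change -1.09), the acid phosphatase Acp2 (-0.67), Fnip1 (-0.54) and the ribonuclease Rnaset2b (-0.50).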

How the data were processed

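RNA of 4 droplet libraries was measured, 2 per diet. The deposited values are raw UMI counts per gene and cell. Cell Ranger, Seurat and mm10 are named in the submitters' processing notes, without versions or roles; how barcodes were called and whether strand was used is not given in the sources used here. The 40 members and all lists, including the second list, were chosen with earlier results of these data known.

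Barcodes needed at least 200 genes and no more than 10% mitochondrial UMIs, and the cells scoring highest for doublets in each library were removed (0.8% per 1000 cells; 14, 17, 20 and 28 cells). Scanpy 1.11.5 clustered them at resolution 1.0 (2000 variable genes, 30 components, 15 neighbours), leaving lysosomal genes out. A cluster was named by fixed markers among its top 10 genes. Clusters with C1qa, C1qb and C1qc in at least 90% of cells were macrophage-like only if neither cell cycle markers nor those of another class led. They also needed at least 3 macrophage markers, each in at least 25% of cells. Other clusters with that much C1q RNA were named cycling or stayed unnamed. Spp1 was not counted against the macrophage-like name, a choice made after the clusters were seen, and 5 clusters (361 cells) stayed unnamed. For each library and class, counts were summed, and the sums tested with edgeR 4.0.16 (TMM, filterByExpr, robust quasi-likelihood F test, Benjamini-Hochberg over all genes tested); the interaction model was library, class and class by diet. DESeq2 1.42.0 was an alternative. An exact permutation test of 2 against 2 libraries cannot go below p = 0.333. The fits were tested on simulated counts, with changed genes drawn only from those above the median level and with a spread set by level. The macrophage-like fit (10290 genes) recovered 88 of 100 genes changed by 1 on the log2 scale and 100 of 100 changed by 2. The monocyte-like fit (5459 genes) recovered 25 and 72 of 100. Recovery of less abundant genes was not tested.

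Genes were named by a rule: per role the 3 smallest p-values and the most abundant gene, plus Mitf, Tfeb, Tfe3, Ctsk and Atp6v0d2; in the second list the 5 largest and 5 smallest log2 fold changes among called genes without overlap and with at least 50 CPM; per class the 5 smallest interaction p-values; and for promoters up to 5 named genes with TCACGTGA or CACGTG plus 2 called genes without. Some genes that the rule names in the second list are not reported here. Other genes were named after their values were seen. Gene coordinates are from GENCODE vM21, promoters from RefSeq on GRCm38.p6.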

Additional observations from a re-analysis of the deposited data

Results flagged for a closer look

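Lysosomal genes whose diet difference in another class was unlike that in macrophage-like cells, by edgeR's interaction test, are listed here. Each value is the log2 diet difference of the class minus that in macrophage-like cells, estimated in a joint fit of both. In plasmacytoid dendritic cell-like cells the values were -1.42 for Ctsz, -1.40 for Cd68, -0.99 for Ctss, -0.79 for Npc2 and -0.97 for Ctsd. In endothelial-like cells they were -1.71 for Ctsl, 1.13 for Ctsc, 0.71 for Ctsb and 0.60 for Psap. In dendritic cell-like cells they were -1.32 for Fuca1, -0.99 for Ppt1, -1.16 for Cd68 and 0.89 for Lamp1. In B cell-like cells they were 2.11 for Ctsb, 1.40 for Psap, 1.81 for Lgmn, 1.95 for Grn and 1.83 for Ctsd. The values for Ctsl in endothelial-like cells and for Ctsz and Cd68 in plasmacytoid dendritic cell-like cells kept their calls in all 16 other settings; each of the other values lost its call in at least 1.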

How the results depend on the processing

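Of 741 values for single lysosomal genes in macrophage-like cells over 19 settings, 704 kept direction and call, 27 lost a call, 10 gained one and 0 reversed. Counts of called members outside macrophage-like and Kupffer-like cells moved most, in classes with as few as 10 cells in a control library. Counts over all genes under the other settings are given for macrophage-like cells only. There they were smaller in every fit that left out 1 library. A changed count of members below thus describes the fit and is no finding about the members. A member is called unlike where the interaction test against macrophage-like cells passed.

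Library totals alone gave 14 members lower and a median of -0.239 in macrophage-like cells, 14 higher and 33 lower in the second list, 3 calls in dendritic cell-like and 1 in monocyte-like cells, and 7 unlike in dendritic cell-like cells. DESeq2 gave 6 lower in the second list, 0 calls in monocyte-like, 4 in endothelial-like and 8 in cycling cells, and 2 unlike in dendritic cell-like, 2 in plasmacytoid, 8 in B cell-like and 1 in endothelial-like cells. Upper-quartile factors gave 2 calls in dendritic cell-like and 1 in monocyte-like cells. Without a count filter there were 7 and 10, and 2 unlike in endothelial-like cells. Same-numbered libraries did not deviate together in macrophage-like cells (correlation -0.035), and no label says that a number marks a shared mouse or day, so the numbers were not treated as pairs; the replicate block gave 5 calls in dendritic cell-like and 0 in monocyte-like cells, and Grn was called lower.

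Leaving out 1 library gave 5 to 7 members lower in macrophage-like cells, 20 to 33 higher and 4 to 14 lower in the second list, and calls of 0 to 1 in T cell-like, 10 to 13 in cycling, 1 to 6 in dendritic cell-like, 4 to 10 in endothelial-like and 0 to 8 in monocyte-like cells. The unlike counts were 7 to 13 in B cell-like, 0 to 6 in dendritic cell-like, 1 to 4 in endothelial-like, 0 to 4 in monocyte-like and 5 to 8 in plasmacytoid dendritic cell-like cells. The interaction of Ctsc in endothelial-like cells ranged from -0.096 without NASH library 1 to 1.58.

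All deposited barcodes gave 3 calls in dendritic cell-like, 5 in monocyte-like and 6 in B cell-like cells, and 1 unlike in monocyte-like, 2 in B cell-like and 2 in endothelial-like cells. The stricter cell filter gave 20 higher in the second list, 13 calls in endothelial-like and 6 in cycling cells, 3 unlike in plasmacytoid dendritic cell-like cells and a difference in summed share of 0.317 percentage points (-0.0503 with the filter used). Removing 3 times the doublets gave 6 calls in monocyte-like and 5 in endothelial-like cells, and 1 unlike in the latter. Leiden resolution 0.5, or lysosomal genes in the clustering, gave 0 calls in dendritic cell-like cells. Resolution 2.0 gave 0 calls and 6 unlike in B cell-like cells, where the interactions of Ctsb, Psap, Lgmn, Grn and Ctsd became -0.43, -0.43, -0.063, -0.51 and -1.38.

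Naming cells one by one gave 5 lower in macrophage-like cells, 1 call in monocyte-like, 6 in plasmacytoid and 4 in T cell-like cells, and 5, 8 and 4 unlike in plasmacytoid, B cell-like and T cell-like cells; Ctss and Ctsd in plasmacytoid cells became 0.24 and 0.50. Thinning to 1000 UMIs gave a median of 0.012, a summed difference of -0.251, 6 lower in the second list, calls of 11 in Kupffer-like, 0 in monocyte-like, 2 in endothelial-like and 9 in cycling cells, and 0, 1, 4, 2 and 2 unlike in dendritic cell-like, monocyte-like, plasmacytoid, B cell-like and endothelial-like cells; Ctsb and Psap in endothelial-like cells became -0.22 and -0.31. The cause was not tested, other than the fewer UMIs or cells a setting holds by construction. No value was had for classes left with under 10 cells in a library: dendritic cell-like (stricter filter, 3 times the doublets), monocyte-like (stricter filter, resolution 2.0, lysosomal genes in the clustering) and T cell-like (stricter filter). NK cell or ILC1-like and neutrophil-like cells were not tested. The interaction fits hold each library as a term, so no replicate block was added to them. The settings without the Gpnmb-led cluster and with little hepatocyte and endothelial RNA were added after the data were seen.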

Other observations

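In the second list of lysosomal genes, CACGTG was in the promoter windows of 21 of 72 genes (29.2%) and TCACGTGA in those of 11 (15.3%), beside 8.09% and 1.12% of all genes with a window.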
